A study of Mus musculus with 6 samples.

Results

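The genes of motile cilia and axonemal dyneins were taken from the deposited expression table of mouse pulmonary arterial smooth muscle cells (PASMCs) by gene symbol. Members were the protein-coding rows whose symbol begins with Dnah, Cfap, Dnai or Rsph and a digit, together with Foxj1, Ccdc39, Ccdc40, Tekt1 and Tekt2. In the GENCODE M21 annotation (mm10) 59 protein-coding genes carry such symbols, and 55 of them had a row, of 21785 rows in all. Cfap73, Cfap97d1, Dnah12 and Rsph6a, the other 4, were not analysed here. The lowest row of the table sums to 3 over the 6 libraries, so no row without any value was kept. The set was proposed with results of these data known, and its levels and changes are a description of these libraries.

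All samples came from C57BL/6 mice. Cells were grown out from lung pieces that were retained on a magnet after the vessels had been filled with iron particles in agarose, and the labels describe no marker or sort. Each group has 3 samples, and both groups were kept for 48 h in medium without supplements. The stimulated samples then received bone morphogenetic protein 9 (BMP9) at 1 ng/mL and BMP10 at 5 ng/mL for 6 h. Both are ligands that circulate in blood and belong to the TGF-beta family. The control samples received neither ligand. No label states the age or sex of the mice or whether samples came from separate animals or cultures. The spread behind each p-value may therefore be technical. Levels are the authors' normalized read counts, which sum to between 27295973 and 31903795 per library. The reads behind them were estimated at 23.3 to 28.0 M in 5 libraries and 54.4 M in stimulated replicate 3. Changes are on the log2(value + 1) scale, stimulated minus control, ± SE, with adjusted p from limma over all genes (Benjamini-Hochberg), and all levels are mean ± SD with n = 3 per group.

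A motile cilium beats because dynein motors, anchored as outer and inner arms on its ring of microtubule doublets, slide neighbouring doublets past each other. Radial spokes and a central microtubule pair control the motors, and nexin links hold the ring together. Multiciliated cells of the airway and sperm carry such axonemes, and the transcription factor Foxj1 together with RFX factors switches their genes on. Vascular smooth muscle cells are not multiciliated, but like most cells they can bear a primary cilium, which lacks dynein arms, spokes and the central pair and does not beat.

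RFX factors bind the X-box, whose 2 arms read GTTGCC or its complement GGCAAC. The RefSeq promoter table (GRCm38.p6) held 44 of the 55 members. Searched on both strands of the 250 bases before the start, the arm GTTGCC was present for 15 of the 44 (34.1%), against 11.8% of all 27025 symbols in that table and 12.5% of the 12276 protein-coding ones with a row. The full X-box, read as GTTGCC, any 2 bases and GGNAAC, contains the arm. It was present for 1 member, Cfap298, and for 0.292% of all symbols. The forkhead site TGTTTAC was present for 3 members, Cfap20, Cfap43 and Dnah17, and for 3.54% of all symbols. A match describes letters and does not show a bound site. Of the 11 members that passed the test described below and were in the promoter table, 3 held the arm, a share no higher than that of all 44. The 30 bases around the arm are shown for these 3 genes, with each arm in capitals.
Cfap298: gtttgggttttgGTTGCCcgGGCAACagct
Dnah7b: tacaggagcacaGTTGCCacccacccttaa
Tekt1: tcttctaactagGGCAACgttgcgtccgtc
They lie at chr16:90935020-90935049 on the minus strand, chr1:46066678-46066707 on the plus strand and chr11:72361900-72361929 on the minus strand. The first arm begins 188, 163 and 35 bases before the RefSeq start. In GENCODE M21 the Cfap298 window falls in an exon of a longer transcript, and those of Dnah7b and Tekt1 in introns of longer transcripts.

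Most members were at low levels, and most were lower after stimulation. Of the 55, all tested with a mean of at least 1, 11 fell and 1 rose at an adjusted p under 0.05 in limma, while 43 did not pass. Over all 21743 genes tested, 4.75% were called lower and 8.61% higher, against 20% and 1.82% of the members. The median change of the members was -0.97, and that of all genes tested was -0.03. A change below 0 was found for 47 of the 55 members (85.5%), against 53% of all genes tested. The groups did not overlap, with every control above every stimulated sample, for 19 members (34.5%), against 15.4% of all genes tested, and in the other direction for 1 member, against 17.8%. Same-numbered samples deviated together for numbers 1 and 2 (correlations of 0.747 and 0.741) and only weakly for number 3 (0.218). With the number as a block limma called 17 members lower and 1 higher, where 12% and 14.9% of all genes were called. Scaling the libraries to equal totals gave 12 members lower and 0 higher, and moved the split over all genes from 1873 higher and 1032 lower to 1135 and 2265. Leaving out control replicate 1 gave 0 members lower and 0 higher, where 1.5% of all genes were called lower. Without control replicate 2 and without stimulated replicates 1, 2 and 3 it was 3, 5, 2 and 2 lower, where 3.7%, 3.55%, 3.21% and 1.19% of all genes were. Without control replicate 3 it was 10 lower, against 1.44% of all genes, and 3 of these 10 (Ccdc40, Dnah2 and Tekt1) were among the 11.

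**Figure D1:**
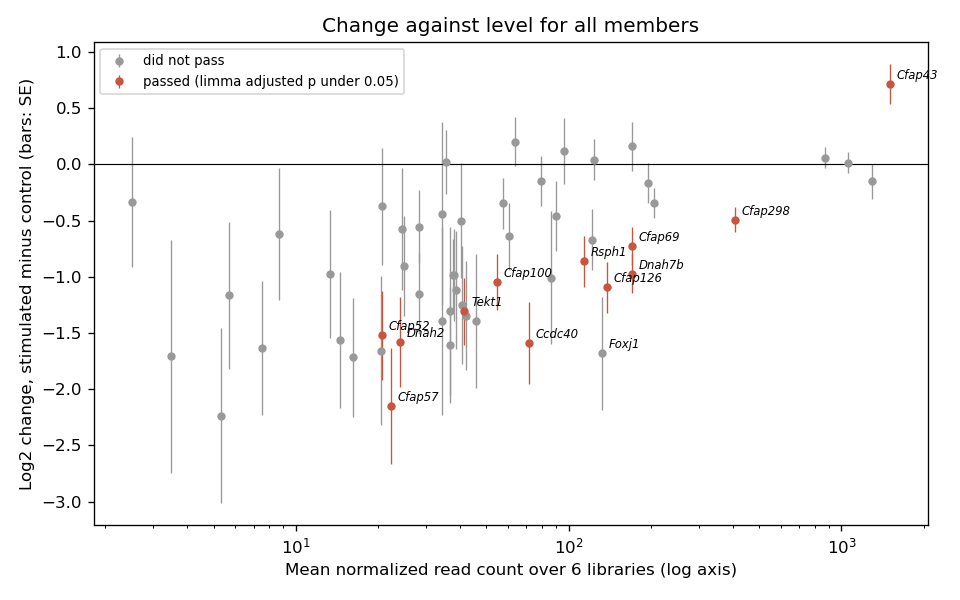
Each point is 1 of the 55 members, with its mean normalized read count over the 6 libraries on a log axis and its log2 change (stimulated minus control) with SE bars. The 12 that passed are coloured, and Foxj1, which did not pass, is labelled too. Only Cfap43, the highest member by count, lies above 0 among those that passed.

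The members spanned a wide range of levels. Mean counts over the 6 libraries ran from 2.5 for Dnah14 to 1505 for Cfap43, with a median of 40.5, where the median of all genes tested was 184.5. Per kilobase of exon, the highest mean levels belonged to Cfap36 (473), Cfap298 (257), Cfap20 (237), Cfap43 (213) and Cfap97 (169). The dynein heavy chains, whose transcripts are long, stood between 0.154 per kilobase for Dnah14 and 8.53 for Dnah7b. After Cfap298, whose mean count was 408, the next member was Rsph9 at 206, and the 5 genes above that gap are described first. Summed over these 5, values ran from 4821 to 4934 in controls and from 5112 to 5698 in stimulated samples. The other 50 members together summed to 4249, 4004 and 2974 in control replicates 1 to 3 and to 2271, 2077 and 2413 in the stimulated ones. Every control sum of these 50 was thus above every stimulated sum, and control replicate 3 was the lowest control. They were chosen by their level after it was seen, and rest on an estimated 1717 to 4130 reads per library.

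Among the 5 highest members, 1 rose, 1 fell and 3 did not pass. Cfap43, which helps tether inner dynein arms to the doublet, was at 1075, 1233 and 1072 in control replicates 1 to 3 and at 1444, 2347 and 1857 in the stimulated ones. The groups did not overlap, and the stimulated samples differed among themselves by more than the controls did. Cfap43 (chromosome 19, 47736857 to 47919287) rose by 0.72 ± 0.18 (1127 ± 92.1 to 1883 ± 452, limma adjusted p = 0.0400). Equal library totals ended its call (0.0744), as did 5 of the 6 fits that left out 1 library (up to 0.138, without stimulated replicate 3), while the block gave 0.00397. Exons of other genes on the same strand cover 2.3% of its exonic bases.

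Cfap298, a factor needed to assemble dynein arms, was at 470, 512 and 450 in controls and at 357, 340 and 320 in stimulated samples. All 3 controls were higher. It fell by 0.49 ± 0.11 on the log2 scale (limma adjusted p = 0.0291). Opposite-strand exons overlap 53.6% of its exonic sequence, so its level is uncertain where counting ignored strand. Cfap20, a protein of the inner junction of doublet microtubules, was at 1042, 1033 and 1067 in controls and 969, 1139 and 1073 in stimulated samples (limma adjusted p = 0.938). Cfap36, which binds the cilium-linked GTPase Arl3, was at 1481, 1242 and 1347 against 1476, 992 and 1245 (adjusted p = 0.590). Cfap97 was at 866, 801 and 899 against 866, 880 and 930 (adjusted p = 0.708). The groups overlapped for these 3 genes, and their fitted changes of 0.01 ± 0.09, -0.15 ± 0.16 and 0.06 ± 0.09 were smaller than or near their errors. The signs for Cfap20 and Cfap97 turned negative with equal totals and upper-quartile factors.

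Foxj1, the transcription factor of the motile cilium programme, separated the control libraries from each other. It was at 248, 297 and 80 in control replicates 1, 2 and 3 and at 42, 55 and 75 in stimulated replicates 1, 2 and 3. The groups did not overlap, but control replicate 3 was only 5 above the highest stimulated sample. The mean went from 208 ± 114 to 57.3 ± 16.6, a change of -1.68 ± 0.50 that did not pass (chromosome 11, 116330704 to 116335399, limma adjusted p = 0.0713). It passed with the replicate block (0.0389) and without control replicate 3 (0.0198). Within pairs of the same number its change was -2.53, -2.41 and -0.09.

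**Figure D2:**
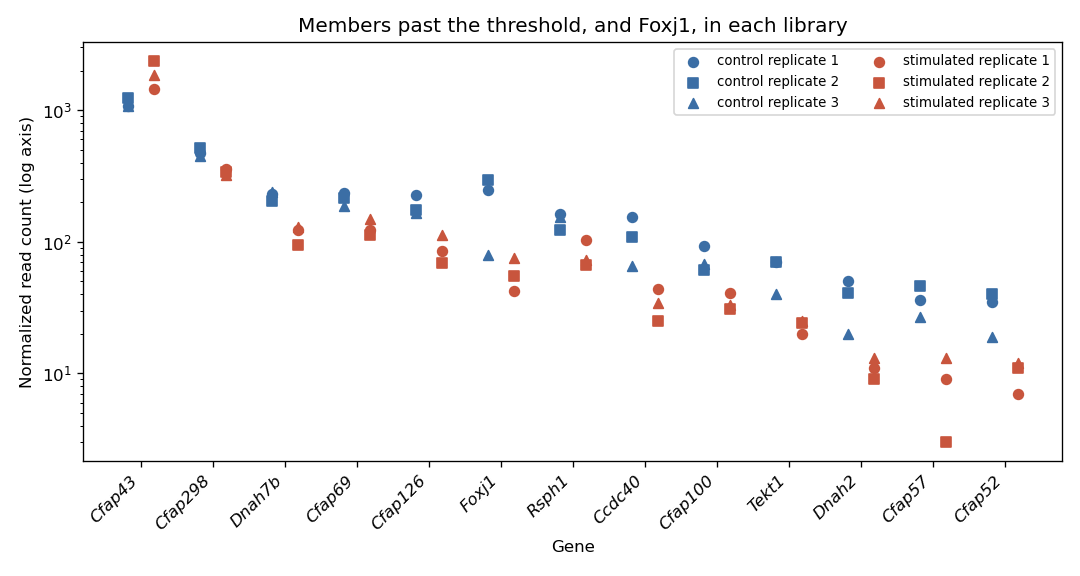
Normalized read counts (log axis) of the 12 members past the threshold and of Foxj1 in each library, with controls in blue, stimulated samples in red and a symbol per replicate number. Control replicate 3 is near the stimulated samples for Foxj1 (80 against 42 to 75) and near the other controls for Dnah7b (241 against 204 and 232).

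The heavy chains are the motors themselves. Of the 5 chains of outer arms, which drive beat frequency, none passed in limma (1 had an unadjusted p under 0.05, and limma-voom called 0). Dnah5, whose loss immobilizes airway cilia, was at 76, 84 and 11 in controls and at 12, 18 and 20 in stimulated samples. Control replicate 3 was therefore below all 3 stimulated samples (-1.31 ± 0.75, limma adjusted p = 0.305). Dnah9, the distal partner of Dnah5, was at 89, 58 and 20 against 25, 20 and 19. Without control replicate 3 both passed in limma, with changes of -2.22 for Dnah5 (adjusted p = 0.0263) and -1.72 for Dnah9 (adjusted p = 0.0434). Dnah11, a proximal outer arm chain, was at 38, 43 and 13 against 3, 15 and 11 (-1.66 ± 0.66, limma adjusted p = 0.154). The same order held for all of these, with control replicates 1 and 2 above the rest. Dnah8 and Dnah17, chains of the sperm flagellum, did not share it. Dnah8 was at 115, 78 and 117 against 91, 48 and 92, and Dnah17 at 33, 30 and 42 against 29, 47 and 32, with control replicate 3 the highest control in both.

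Of 9 inner arm and other heavy chains, 2 fell and 7 did not pass, all with a change below 0. Of all genes tested, 4.75% were called lower and 53% had a change below 0. The sign of Dnah3, Dnah7c, Dnah10 and Dnah14 turned in fits with fewer libraries. Dnah7b was at 232, 204 and 241 in controls and at 122, 94 and 130 in stimulated samples. The groups were far apart, and all 3 controls were close to each other. It fell by 0.97 ± 0.17 on the log2 scale (chromosome 1, 46066315 to 46373546, 226 ± 19.3 to 115 ± 18.9, limma adjusted p = 0.0146), the smallest p of the members. Without control replicate 1 or 3 the adjusted p was 0.0650 and 0.0679. Dnah7b has 2 close copies among the members, and reads may be split between them. Dnah7a was at 14, 8 and 3 against 1, 3 and 5, and Dnah7c at 30, 26 and 13 against 8, 23 and 24, neither of which passed.

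Dnah2, a chain of the inner arm with 2 heads, was at 50, 41 and 20 in controls and at 11, 9 and 13 in stimulated samples. It fell by 1.58 ± 0.40 on the log2 scale (limma adjusted p = 0.0443), a call lost with limma-voom (0.0632) and without any single library other than control replicate 3. Dnah10, its partner in that arm, was at 56, 55 and 27 against 54, 15 and 35, with overlapping groups. Dnah6 was at 121, 185 and 46 against 29, 92 and 46, and Dnah3 at 62, 66 and 7 against 19, 33 and 19. Control replicate 3 was at or below 2 or more stimulated samples for both. Dnah1, another inner arm chain, was at 70, 102 and 52 against 50, 52 and 37. Dnah14 never exceeded 5.

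Ccdc39 and Ccdc40 form the ruler that sets the spacing of inner arms and nexin links along the doublet. Ccdc40 was at 153, 108 and 65 in controls and at 44, 25 and 34 in stimulated samples. The groups did not overlap, and Ccdc40 fell by 1.59 ± 0.37 on the log2 scale (109 ± 44 to 34.3 ± 9.5, limma adjusted p = 0.0327). Its partner Ccdc39 was at 121, 156 and 167 against 99, 64 and 122, where the highest stimulated sample passed the lowest control (-0.67 ± 0.27, limma adjusted p = 0.156). Opposite-strand exons overlap 16.9% of Ccdc39. Control replicate 3 was the lowest control for Ccdc40 and the highest for Ccdc39.

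Tektins are filament proteins inside the doublet wall. Tekt1 was at 70, 70 and 40 in controls and at 20, 24 and 25 in stimulated samples, without overlap. It fell by 1.31 ± 0.30 on the log2 scale (limma adjusted p = 0.0315). Tekt2 was at 71, 62 and 60 against 42, 48 and 63, and the groups overlapped (-0.35 ± 0.23, limma adjusted p = 0.374). The calls of Ccdc40 and Tekt1 were lost without control replicate 1 (0.104 and 0.118), control replicate 2 (0.0775 and 0.0795), stimulated replicate 2 (0.0804 and 0.0654) or stimulated replicate 3 (0.116 and 0.103), and that of Tekt1 also without stimulated replicate 1 (0.0791). Opposite-strand exons overlap 20.8% of Tekt2.

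Radial spokes carry signals from the central pair to the dynein arms. Of 7 spoke genes, 1 fell and 6 did not pass, where 4.75% of all genes tested were called lower. Every control was above every stimulated sample for 4 of the 7, against 15.4% of all genes tested. Rsph1, a spoke head protein, was at 164, 122 and 154 in controls and at 103, 67 and 73 in stimulated samples. It fell by 0.86 ± 0.22 on the log2 scale (limma adjusted p = 0.0484), which was lost with a pseudocount of 5 (0.0535) and with limma-voom (0.0501). Rsph9, also of the spoke head, was at 228, 229 and 234 against 188, 196 and 162. All 3 controls were higher, by a small amount (-0.34 ± 0.13, limma adjusted p = 0.143). Rsph9 passed in limma with equal library totals (0.0460) and with equal totals and the block together (0.0221). With the block alone it did not pass (0.0865). Rsph4a, a spoke head protein too, was at 73, 70 and 26 against 22, 9 and 21 (-1.60 ± 0.52, limma adjusted p = 0.0880), and passed with the replicate block (0.0483). Rsph10b was at 68, 52 and 33 against 21, 25 and 27. The 2 copies of the stalk protein, Rsph3a (47, 71 and 61 against 66, 72 and 66) and Rsph3b (102, 69 and 79 against 86, 67 and 71), overlapped between groups, and reads may be split between them. Rsph14 was at 15, 12 and 2 against 1, 0 and 2.

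The other 24 cilia and flagella associated proteins, those outside the 5 highest members, held 5 more falls and no rise. Of all genes tested, 4.75% were called lower and 8.61% higher. Cfap126, known as Flattop, which helps place basal bodies, was at 226, 173 and 166 in controls and at 85, 69 and 112 in stimulated samples. It fell by 1.09 ± 0.23 on the log2 scale (188 ± 32.8 to 88.7 ± 21.7, limma adjusted p = 0.0243). Cfap69, a central apparatus protein, was at 234, 215 and 187 against 124, 113 and 148, and fell by 0.72 ± 0.17 (adjusted p = 0.0335). Cfap100, which links inner arms to the doublet, was at 93, 61 and 68 against 41, 31 and 33 and fell by 1.05 ± 0.25 (adjusted p = 0.0361). In these 3 genes every control was above every stimulated sample, and control replicate 3 was within 7 of another control for Cfap126 and Cfap100.

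Cfap57, needed for inner arm assembly, was at 36, 46 and 27 in controls and at 9, 3 and 13 in stimulated samples. It fell by 2.15 ± 0.51 on the log2 scale (limma adjusted p = 0.0366), the largest change of the members that passed. Cfap52, a protein inside the doublet, was at 35, 40 and 19 against 7, 11 and 12 and fell by 1.52 ± 0.39 (adjusted p = 0.0464). The call of Cfap52 was lost with limma-voom (0.0585) and without any 1 of the 6 libraries. Those of Cfap57, Cfap69, Cfap100, Cfap126, Cfap298 and Rsph1 were each lost in 4 to 6 of the 6 fits that left out 1 library.

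Several members with changes as large did not pass. Cfap65, a protein of the sperm flagellum, was at 91, 66 and 8 in controls and at 16, 14 and 11 in stimulated samples (-1.39 ± 0.84, limma adjusted p = 0.328). Control replicate 3 was below every stimulated sample, and without it the change of Cfap65 was -2.44 and passed (limma adjusted p = 0.0222). Cfap58, also of the flagellum, was at 32, 36 and 10 against 5, 6 and 8 (-1.72 ± 0.53, adjusted p = 0.0769), without overlap, and passed without control replicate 3 (0.0337). Cfap77 was at 30, 17 and 17 against 12, 2 and 9 (-1.56 ± 0.60, adjusted p = 0.141), and passed with the replicate block (0.0439). Cfap54, of the central apparatus, was at 67, 97 and 25 against 20, 23 and 20, and Cfap44, the partner of Cfap43, at 87, 72 and 21 against 22, 23 and 18. Cfap43 and Cfap44 thus did not run together, with changes of 0.72 and -1.25 (adjusted p = 0.171 for Cfap44). Without control replicate 3 Cfap54 and Cfap44 passed in limma (0.0290 and 0.0266), and Cfap54 also with the block (0.0392). Cfap206 was at 79, 78 and 36 against 22, 10 and 50, and Cfap46, of the central apparatus, at 43, 39 and 11 against 13, 19 and 22.

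The groups overlapped for a further set of members. Cfap300, another dynein assembly factor, was at 224, 166 and 233 in controls and at 177, 167 and 207 in stimulated samples (limma adjusted p = 0.601). Cfap157, a basal body protein, was at 184, 122 and 180 against 209, 151 and 179 (adjusted p = 0.681), and its sign turned with equal totals, as did those of Cfap74 and Cfap45. Cfap74, of the central apparatus, was at 126, 105 and 136 against 108, 129 and 141. Cfap45, a protein inside the doublet, was at 96, 128 and 59 against 111, 94 and 90. None of these 4 had all controls on one side of the stimulated samples. The members not given value by value here are Cfap53, Cfap61, Cfap70, Cfap97d2, Cfap99, Cfap161, Cfap221 and Cfap299, with means between 3.5 and 38.2 and changes between -1.71 and -0.55, none of which passed in limma (3 had an unadjusted p under 0.05, and limma-voom called 0). With the replicate block Cfap70 and Cfap221 passed (0.0318 and 0.0375).

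**Figure D3:**
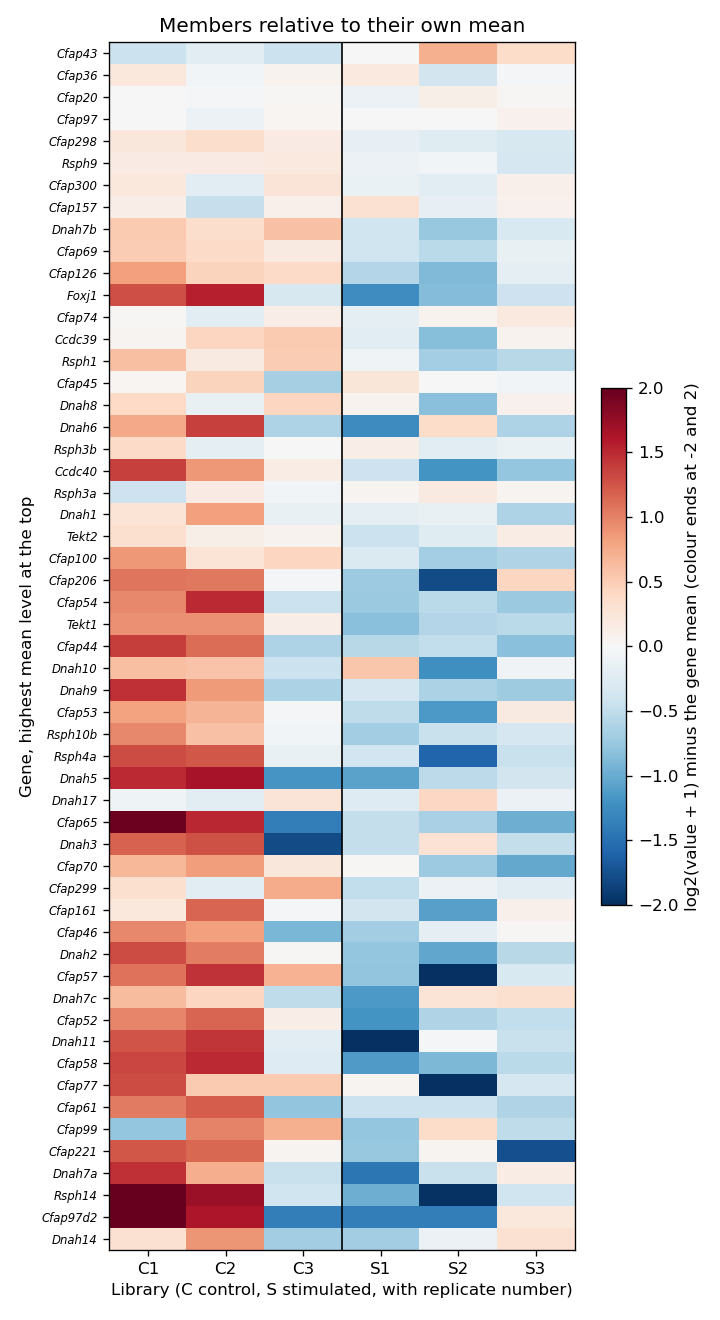
Each row is a member, ordered by mean level, and each column a library, coloured by log2(value + 1) minus the mean of that gene over the 6 libraries. Control replicates 1 and 2 are above the mean for most genes below the highest rows, while the median member in control replicate 3 (0.02) is between them and the stimulated samples. For 31 of the 55 members control replicate 3 is not above all stimulated samples. The same holds for 14948 of the 21743 genes tested, a larger share.

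The control libraries differed from each other on these genes. Control replicate 3 was the lowest control for 37 of 55 members (67.3%), against 24.3% of all genes tested. In 19 members (34.5%) control replicates 1 and 2 were above every stimulated sample and control replicate 3 was not, against 3.79% of all genes. Relative to each gene's own mean, the median member stood at 0.76, 0.73 and 0.02 on the log2 scale in control replicates 1, 2 and 3 and at -0.43, -0.49 and -0.31 in the stimulated ones. The median change within a pair was -1.25 for replicate 1, -1.10 for replicate 2 and -0.17 for replicate 3. In those pairs the stimulated sample was lower for 49, 46 and 33 of 55 members, against 10831, 11118 and 10418 of the 21743 genes tested. Pairs 1 and 2 thus showed the difference in more members than pair 3. Without both replicate 3 libraries the median change was -1.32, and no gene of the whole table was called by limma in a fit of 2 against 2 samples.

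**Figure D4:**
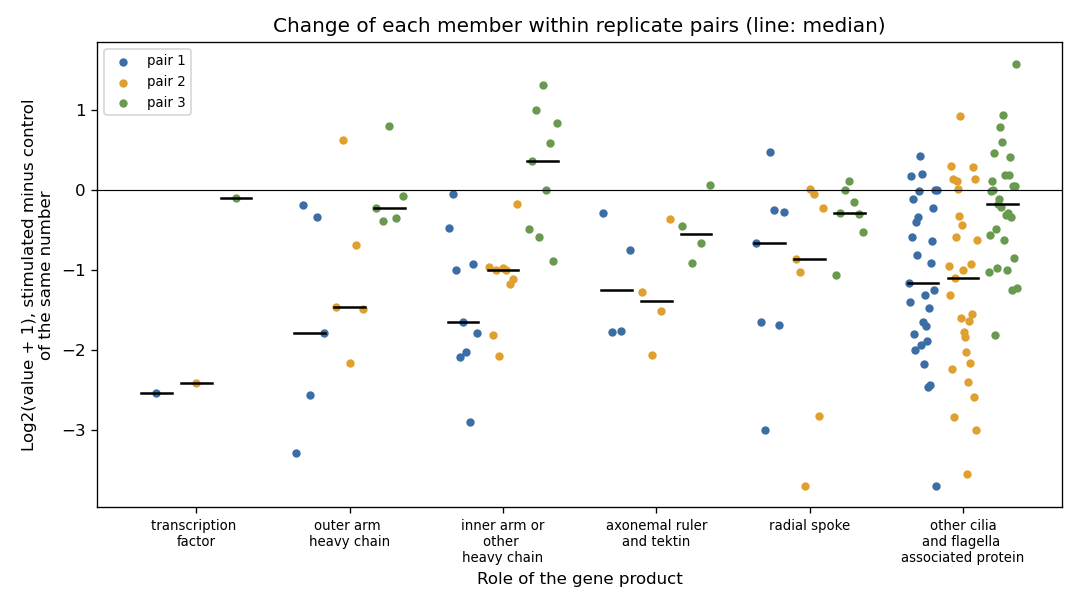
Points give log2(value + 1) of the stimulated sample minus the control of the same number for each member, grouped by the role of its product, with a line at the median of each pair. Pair 3 lies closest to 0 in each group, and for inner arm and other heavy chains its median is above 0.

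Genes of the same structures outside the symbol rule were mostly lower as well, with changes below 0 in 14 of 15, 17 of 17 and 18 of 22 genes of the first 3 lists. Of 15 other dynein arm and docking genes, 1 fell and none rose in limma, with a median change of -1.15 (9 had an unadjusted p under 0.05 and were lower). The fall was that of Ttc25, a docking factor of outer arms, which fell by 1.45 ± 0.32 on the log2 scale. Of 17 central pair and spoke genes, 2 fell and none rose, with a median of -1.01. These were Hydin, a central pair protein (57, 51 and 25 in controls, 8, 15 and 10 in stimulated samples), and the adenylate kinase gene Ak7 (79, 80 and 41, then 22, 11 and 19). Among 22 nexin link and inner microtubule genes 2 fell and none rose, with a median of -0.60, and the falls were those of Drc3 and Drc7, subunits of the nexin link. Of 11 dynein assembly factors and 13 regulators of multiciliation, none passed in limma (lower with an unadjusted p under 0.05 in 4 and 3, higher in 1 and 1, and 0 by limma-voom), with medians of -0.30 and -0.32. With the replicate block the lower calls in these 5 lists, in the order given, were 4, 6, 6, 2 and 2, with 1 higher call in the last. Of all genes tested, 53% had a change below 0. In limma 4.75% of them were called lower and 8.61% higher, and with the block 12% and 14.9%. An unadjusted p under 0.05 was found for 2877 lower and 3370 higher genes of the 21743 tested.

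Genes of the primary cilium were called in both directions. Of 60 genes for intraflagellar transport and the primary cilium, 4 rose and 6 fell (8.61% and 4.75% of all genes tested), with a median of -0.17. With the replicate block 5 were called higher and 17 lower, where 14.9% and 12% of all genes tested were. A change below 0 was found for 43 of the 60. Every control was above every stimulated sample for 22 of the 60, against 34.5% of the members and 15.4% of all genes tested. Falls without overlap were thus not particular to the members. The smallest p-values belonged to Bbs9, which fell by 0.69 ± 0.12 on the log2 scale, Cep290, which rose by 0.68 ± 0.12, Bbs10 (-0.67 ± 0.13) and Ift140 (-0.62 ± 0.13). Of 19 cytoplasmic dynein and dynactin genes, which move cargo in all cells, 2 rose and none fell, with a median of 0.03 (3 higher and 2 lower with the block). Hedgehog pathway genes, whose signal runs through the primary cilium, had 2 rises and 4 falls among 11. They included Boc (1.71 ± 0.18), Gas1 (-1.11 ± 0.14) and Gli2 (-1.65 ± 0.28).

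Markers of ciliated airway cells were present and moved with the members in pairs 1 and 2, with median changes of -1.69 and -2.14. In pair 3 their median was 0.28, with 9 of 14 higher in the stimulated sample, where the median of the members was -0.17. All 14 listed genes had a change below 0, with a median of -1.31, but none passed in limma (5 had an unadjusted p under 0.05 and were lower, limma-voom called 0, and 3 fell with the replicate block). Of all genes tested, 53% had a change below 0 and 12% were called lower with the block. The summed level of the 14 markers was 2019, 2397 and 1169 in control replicates 1 to 3 and 931, 1015 and 1262 in the stimulated ones. Sec14l3 (645, 846 and 214 in controls, 173, 390 and 303 in stimulated samples) and Tppp3 (497, 609 and 404, then 415, 430 and 434) made up most of it. Control replicate 3 was the lowest control for all 14. Sntn, found at the cilium tip, was at 30, 43 and 29 against 12, 1 and 36, and Ccdc153 at 129, 153 and 58 against 58, 7 and 74. None of the 14 was at 0 in any library. In bulk samples fewer cells of a type and less RNA per cell cannot be told apart, and the part of ciliated cells in the members' changes was not tested.

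Markers of other cells were also measured in these cultures. Acta2, a smooth muscle marker, was at 23470 or more in each library. Of 12 smooth muscle and pericyte markers, 11 had a change above 0. Called higher in limma were 6 of the 12, where 8.61% of all genes tested were. These 12 summed to 52583, 71127 and 66726 in controls and to 113891, 211934 and 158127 in stimulated samples. The 10 fibroblast markers summed to 431677, 584417 and 494892 in controls and to 339451, 610676 and 407741 in stimulated samples. Of these 10, 1 was called lower and 0 higher in limma, against 4.75% and 8.61% of all genes tested. Whether the cells are smooth muscle was not tested. Macrophage markers were high, with Lyz2 between 81014 and 179899. All 14 macrophage markers had their lowest control in replicate 3 (summed levels of 104742 there, 181708 and 171346 in the other controls, and 154516 to 234079 in stimulated samples). The 21 airway and alveolar epithelial markers summed to 10719, 43129 and 11976 in controls and 4109, 40624 and 22630 in stimulated samples. Krt5, Scgb3a1 and Bpifa1 were at 0 in some libraries. Mesothelial and endothelial sums were highest in replicate 2 of both groups (6206 and 4040, 48212 and 47240). None of the epithelial, mesothelial, endothelial or macrophage markers passed in limma (unadjusted p under 0.05 for 1, 0, 0 and 1, and 0 by limma-voom). With the replicate block 4, 1, 3 and 0 of these markers were called lower and 1, 0, 3 and 2 higher. Of all genes tested, 12% were called lower and 14.9% higher with the block. The part of these cells in the members' changes was not tested either.

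**Figure D5:**
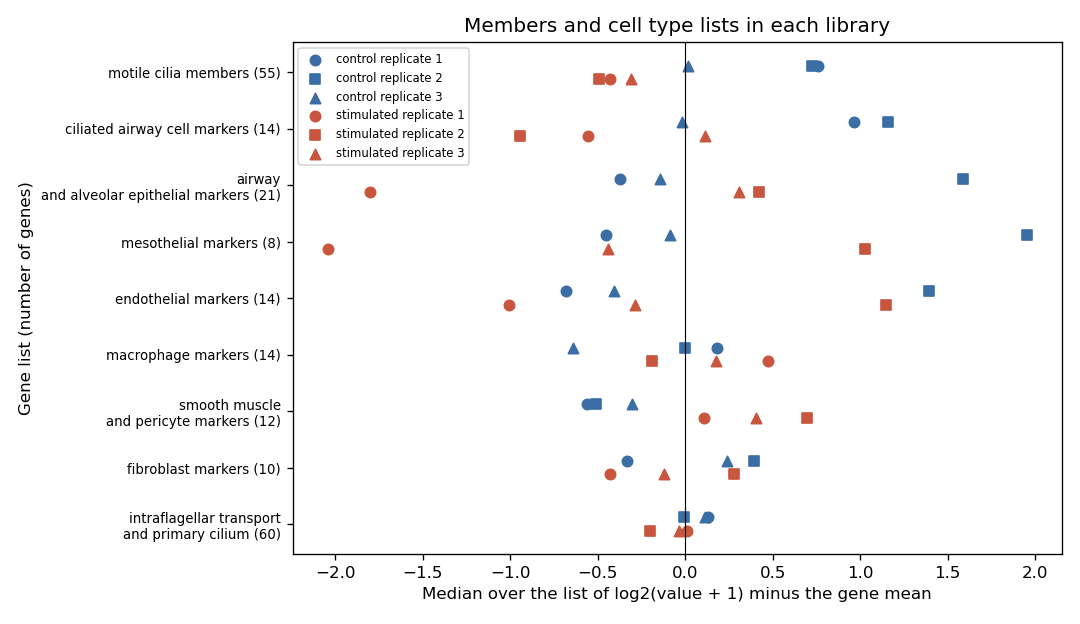
Each point is the median over a gene list of log2(value + 1) minus the gene mean, for 1 library, with controls in blue and stimulated samples in red. For the members and for ciliated airway markers control replicates 1 and 2 lie highest (0.76 and 0.73, 0.97 and 1.16), whereas epithelial, mesothelial and endothelial lists are highest in control replicate 2.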

How the data were processed

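Libraries came from DNase-treated total RNA and a stranded kit for the whole transcriptome, per the labels' protocols. The submitters' processing notes name Trimmomatic 0.38, STAR 2.6.1d, featureCounts 1.6.3, DESeq2 1.18.1 and, besides human builds, mm10. The strand setting and annotation release were not given in the sources used here. Each deposited value is a score: the authors' read count scaled by a library factor and rounded, as its steps show. That factor was estimated from skipped or doubled whole numbers as 1.07, 0.99 and 1.03 for controls and 1.32, 1.14 and 0.584 for stimulated replicates, and is least certain for control replicate 2. Reads were not recovered, so no count model was used.

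Of the row identifiers 21747 matched GENCODE M21. The whole table was fitted with limma 3.58.1 (R 4.3.3) on log2(value + 1) with a trend of the variance on the mean. Tested were 21743 genes averaging 1 or more, with treatment as the only term (4 residual degrees of freedom), with Benjamini-Hochberg adjustment at 0.05. Changes of low genes are understated on this scale. On simulated data for this comparison (21669 genes run, 200 changed, each with a mean of at least 20), 84% of changes of 1 and 100% of changes of 2 on the log2 scale were called. The simulation gave every gene the same dispersion and had no replicate structure. Its shares therefore do not apply to members whose libraries spread widely, such as Foxj1 (-1.68 ± 0.50, not passed). To check the pairing, deviations from group means were correlated over the 13185 genes averaging 50 or more. Libraries of the same number gave 0.747, 0.741 and 0.218, all above 0.1, and were treated as pairs, although control replicate 3 correlated more with stimulated replicate 1 (0.287). What a number stands for is not stated in the labels.

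Members and gene lists were chosen with earlier results of these data known. Named members are those past the threshold, the 12 highest, the 5 listed by full symbol and the 5 largest other changes with a mean of at least 10. Other members and single marker genes were named after their values were seen. Overlaps of exons were taken from the annotation. Alternatives covered scaling, filters, pseudocounts, limma-voom, the block and left-out libraries. Leaving out both replicate 3 libraries was added after seeing the data.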

Additional observations from a re-analysis of the deposited data

How the results depend on the processing

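With the deposited scaling 11 members were lower and 1 higher, with a median change of -0.97. Lower calls numbered 17 with the replicate block, where 12% of all genes were lower. With equal library totals and the block together they numbered 28 (22.6% of all genes were lower there). Without both replicate 2 libraries 1 member was called lower, against 4.13% of all genes. Without both replicate 3 libraries 0 members and 0% of all genes were. When 1 library was left out, between 0 and 10 members were called lower. Higher calls numbered 0 with equal library totals, without both replicate 2 libraries and without both replicate 3 libraries, and 0 to 1 when 1 library was left out. Fits that leave out libraries hold fewer samples, and otherwise the cause was not tested. The median change lay between -1.17 and -0.76 when 1 library was left out and was -0.67 without both replicate 2 libraries. A filter on counts per library size (CPM of at least 1 in 3 libraries) removed 23 members, and the median of the other 32 was -0.50. The median of all genes was -0.20 with equal totals and -0.11 with upper-quartile factors. None of the 12 members past the threshold changed sign under any alternative that tested it. Signs turned for 12 members, none past the threshold, and 4 of these are among the 26 members named by rule. The other 8 are Cfap45, Cfap74, Dnah3, Dnah7c, Dnah10, Dnah14, Dnah17 and Rsph3b. Cfap157 was at -0.012 with equal totals, with or without the block, and between -0.031 and 0.28 when 1 library was left out. Cfap20 was at -0.16 with equal totals, with or without the block, at -0.065 with upper-quartile factors, at -0.048 without both replicate 2 libraries and between -0.038 and 0.078 when 1 library was left out. Cfap97 was at -0.11 with equal totals, with or without the block, and at -0.018 with upper-quartile factors. Cfap36 was between -0.28 and 0.0026 when 1 library was left out. An estimated 3 reads lie behind the value of Cfap57 in stimulated replicate 2, and counting error limits the lowest members.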
